A study of Homo sapiens with 30 samples.

Results

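The genes described here encode the nuclear part of respiratory complexes III, IV and V. They were taken by symbol, as the protein-coding genes that start with UQCR, COX or ATP5, together with CYC1. The rule found 56 genes among 61551 gene identifiers of the 2 count tables, and all 56 were in both tables. They fall into 10 subunits of complex III, 16 subunits of complex IV, 20 genes of complex V and 10 COX assembly factors, which help to build complex IV or supercomplexes and are kept apart from its subunits.

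RNA was sequenced from 3 cell lines of human acute myeloid leukemia (AML), in 10 groups of 3 libraries each, 30 in all. The OE series (12 libraries) compared MV4-11 or Molm-14 cells that expressed miR-1 (OE) from a GFP-marked lentivirus, with MIR1-2 host gene sequence behind an EF1α promoter, with cells given the empty vector (EV). The KO series (18 libraries) compared cells of MV4-11, Molm-14 or THP-1 given lentiviral Cas9, GFP and a single guide to MPC1 (KO), which encodes a subunit of the mitochondrial pyruvate carrier, with their EV controls. MV4-11 and Molm-14 carry the FLT3-ITD mutation and THP-1, a monocytic line, does not, so that a line comparison differs in far more than one mutation. The labels do not say whether replicates were separate cultures, so p-values measure the spread between these libraries, which may be technical.

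In respiration, complex III passes electrons from ubiquinol to cytochrome c and complex IV passes them from cytochrome c to oxygen, both pumping protons, and complex V uses the proton gradient to make ATP. Mitochondrial DNA encodes the cytochrome b of complex III, the catalytic core of complex IV and part of the membrane domain of complex V. The nucleus encodes all other subunits, which are imported and joined to that core with the help of assembly factors that supply heme and copper. AML cells are known for a strong reliance on this pathway.

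Libraries held 15543301 to 20939985 counts in the OE series and 5339360 to 9106478 in the KO series. The members took 0.484% to 0.564% of counts in the first and 0.660% to 0.994% in the second, while mitochondrial genes took 2.72% to 4.34% and 0.140% to 0.452%. The tables list different sets of gene identifiers and were normalized apart, so levels are compared only within a series. Levels are given as CPM, the counts of a gene scaled to the size of its library after TMM normalization. Of 8 myeloid genes, 7 (SPI1, CD33, CEBPA, MPO, LYZ, CSF3R and ITGAM) had counts in every library, and CD14 had group means of at most 3.31 CPM and was at 0 in 1 library. Of the markers of other tissues, the keratin KRT8 also had counts in every library (group means of 0.658 to 7.07 CPM), while the epithelial genes EPCAM and CDH1 were at or below 0.156 CPM and the erythroid genes HBB and ALAS2 at or below 0.141 CPM in every group. MPC1, the targeted gene, was at 24.8 ± 1.26 CPM (SD, n = 3) in MV4-11 KO against 56.1 ± 2.33 in EV, at 37.4 ± 3.92 against 77.3 ± 3.85 in Molm-14 and at 54.1 ± 4.41 against 97.0 ± 5.52 in THP-1. It fell in all 3 lines and its transcripts were not lost in any.

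Members deviated together in single libraries. In MV4-11 OE replicate 1, 5 of 48 tested members were above their group mean, and in replicate 2 of the same group 43 were. In the KO series, 4 of 48 were above the mean in Molm-14 EV replicate 2 and in THP-1 EV replicate 3, against 41 in Molm-14 EV replicate 1 and 42 in THP-1 EV replicate 1. In all 30 libraries, 43.4% to 54.7% of all tested genes were above their group mean. Values without each library are given below where a result rests on one.

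Most members were measured well and 8 were not. Filtering on low counts left 48 tested members in each series: all 10 complex III subunits, 10 of 16 complex IV subunits, 18 of 20 complex V genes and all 10 COX assembly factors. The 6 complex IV genes left out are the tissue isoforms of the heart, lung, testis and muscle. COX4I2, COX6A2 and COX7A1 had 0 counts in all 30 libraries. COX6B2 had 0 to 3 counts a library, and COX7B2 and COX8C had 0 to 1. Their widely expressed counterparts COX4I1, COX6A1, COX6B1, COX7A2, COX7B and COX8A all passed the filter, at group means between 44.1 CPM for COX6A1 in THP-1 EV and 383 CPM for COX4I1 in Molm-14 KO. Complex IV was therefore transcribed as its general form in all 3 lines, as far as these depths show, with a floor of 3 counts a library. In complex V, the readthrough gene ATP5MF-PTCD1 had 0 to 8 counts and ATP5MGL, a copy related to ATP5MG, had 0 to 10.

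Levels per length spanned a wide range within each complex. Lengths are those of the canonical transcript, and levels are CPM per kilobase averaged over the groups of a series. ATP5F1B, the catalytic beta subunit of complex V, was highest of all, at 508 in the OE series and 706 in the KO series. The lowest tested complex V gene was ATP5F1E (22.2) in the OE series and ATP5F1D (42.0) in the KO series. UQCRH, the acidic hinge subunit, led complex III at 161 and 378. Its near-identical relative UQCRHL was lowest at 3.82 and 7.76, and reads may be split between these 2 genes. In complex IV, COX6B1 was highest in the OE series (282) and COX7A2 in the KO series (514), and COX7B was lowest in both (31.0 and 80.9). Among assembly factors, COX17 (36.6) and COX7A2L (56.2) were highest and COX18 (4.78) and COX16 (2.43) lowest. The order within a class depended on the transcript length taken: by the union of all exons, COX17 had rank 4 of its class and ATP5MC2, which had rank 2 by canonical transcripts, had rank 5 in the OE series.

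The c ring of complex V is encoded by ATP5MC1, ATP5MC2 and ATP5MC3, whose mature proteins are identical. ATP5MC2 was the leading c-ring gene in both series, at 360 CPM per kilobase in the OE series and 316 in the KO series. ATP5MC1 was at 84.4 and 136, and ATP5MC3 at 56.4 and 68.7. By the union of all exons ATP5MC2 still led, but ATP5MC3 (37.6 and 45.8) was above ATP5MC1 (20.8 and 33.7).

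The first question was whether miR-1 changed these transcripts. miR-1 silences messages through sites in their 3′ UTRs that pair with its seed. The vector held MIR1-2 sequence, and the paper states that mature miR-1 can come from MIR1-1 or MIR1-2. The mature sequence is shown first, at its MIR1-1 position (chr20:62554351-62554372, plus strand, RefSeq GRCh38.p14), with the seed, bases 2 to 8, in capitals. Below it are the matching stretches of the 3′ UTRs of members, read from the GRCh38 reference, with the site in capitals. These are shown because direct repression would act on such members.
hsa-miR-1-3p: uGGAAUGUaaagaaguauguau
COX7C 3′ UTR, 8mer, chr5:86620836-86620843, plus strand: atttgggtaACATTCCAgtattactc
COX10 3′ UTR, 7mer, chr17:14208133-14208139, plus strand: acagagctcACATTCCtgtcccttg
COX18 3′ UTR, 7mer, chr4:73056503-73056509, minus strand: aaaaagtgtACATTCCtttttctat
COX18 3′ UTR, second 7mer, chr4:73056122-73056128, minus strand: aaaccctatCATTCCAtctcaatgt
ATP5F1E 3′ UTR, 7mer, chr20:59028756-59028762, minus strand: aaaggatctCATTCCAtgggaaaaa

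Few members hold such a site. UQCRB was the other one, which makes 5 members of 55 with an annotated 3′ UTR. An 8mer was in 1.82% of members against 4.82% of 19539 genes, and a 7mer with pairing at base 8 in 5.45% against 7.80%. The other kind of 7mer, with an A across from base 1, was in 3.64% against 10.7%. The 3′ UTRs of members had a median of 236 bases. None of the 5 passed the test under OE. COX7C, a small complex IV subunit and the only 8mer gene, differed by 0.13 in MV4-11 and 0.02 in Molm-14 on the log2 scale. COX10 differed by -0.05 and -0.01, and COX18 by 0.10 and -0.04. ATP5F1E had -0.0004 in MV4-11 and 0.06 in Molm-14. UQCRB had -0.15 and 0.38, and its value in MV4-11 rested on 1 library, as given below.

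No member was called under miR-1 OE in either line. At a 5% false discovery rate (FDR) with edgeR's quasi-likelihood test, 0 of 48 members were called in MV4-11, where 0.177% of all genes were, and 0 of 48 in Molm-14, where 0.00570% were. DESeq2 also called 0 in each. At an unadjusted p under 0.05, 3 members passed in MV4-11 and 1 in Molm-14, against 5.90% and 4.38% of all genes. The median standard error of a member was 0.0760 in MV4-11 and 0.0761 in Molm-14 on the log2 scale.

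Median differences were close to 0 in every class. In MV4-11, OE minus EV had a median of 0.03 for complex III, 0.06 for complex IV, 0.03 for complex V and 0.05 for COX assembly factors. Over the 38 tested members other than COX assembly factors, the median of 0.04 in MV4-11 (28 higher) went to 0.11 without OE replicate 1 (36 higher) and to -0.03 without OE replicate 2 (14 higher). In Molm-14 the class medians were 0.08, 0.02, 0.06 and 0.01, with 29 of the 38 higher, and 25 without EV replicate 1. Cytosolic ribosomal proteins had medians of 0.0004 in MV4-11 and 0.11 in Molm-14, where 80 of 83 were higher. Nuclear subunits of complexes I and II had 0.03 in each line. All tested genes had a median of 0.01 in MV4-11 and 0 in Molm-14. The 6 mitochondrially encoded subunits of these complexes had medians of -0.13 and 0.35, with 0 of 6 called in each line by edgeR. Their mean log2(CPM + 0.5) was 11.4, 11.3 and 11.5 in Molm-14 OE and 11.1, 11.1 and 10.9 in EV, without overlap. In MV4-11 the OE and EV libraries overlapped.

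Among members with a mean of at least 10 CPM in the series, those with the widest differences under OE showed how libraries overlapped. COX20, a chaperone for the mitochondrially encoded subunit MT-CO2, was at 13.2, 13.3 and 13.8 CPM in MV4-11 OE and at 10.7, 11.7 and 10.6 in EV, a log2 difference of 0.28 (SE 0.0909, edgeR FDR 0.400). These groups did not overlap. UQCRB, a ubiquinone-binding subunit of complex III, was at 69.2, 128 and 103 CPM in MV4-11 OE and at 114, 114 and 107 in EV. OE replicate 1 was far below the others here, and without it the difference of -0.15 turned to 0.06. In Molm-14, UQCRB was at 141, 131 and 150 CPM in OE and at 111, 126 and 87.5 in EV, a difference of 0.38 (SE 0.210, FDR 1.00). ATP5ME, the e subunit of the complex V membrane domain, had -0.21 in MV4-11 and 0.31 in Molm-14, neither called. ATP5PO, which encodes the stalk protein OSCP, differed by 0.21 in MV4-11, and without OE replicate 1 it was the 1 member called there (0.31, FDR 0.0466). COX15 and COX11, at -0.08 each, had the lowest values in Molm-14.

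Groups without overlap were counted as well. In the OE comparisons, 8.33% of members in MV4-11 and 18.8% in Molm-14 had all treated libraries on one side of all EV libraries, against 9.17% and 14.9% of all genes. In the KO comparisons the shares were 12.5% in MV4-11, 14.6% in Molm-14 and 10.4% in THP-1, against 24.1%, 16.4% and 13.6%. Molm-14 OE was the 1 comparison of the 5 with a higher share among members than among all genes. There it was 9 of 48 members, close to the share of all genes.

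**Figure D1:**
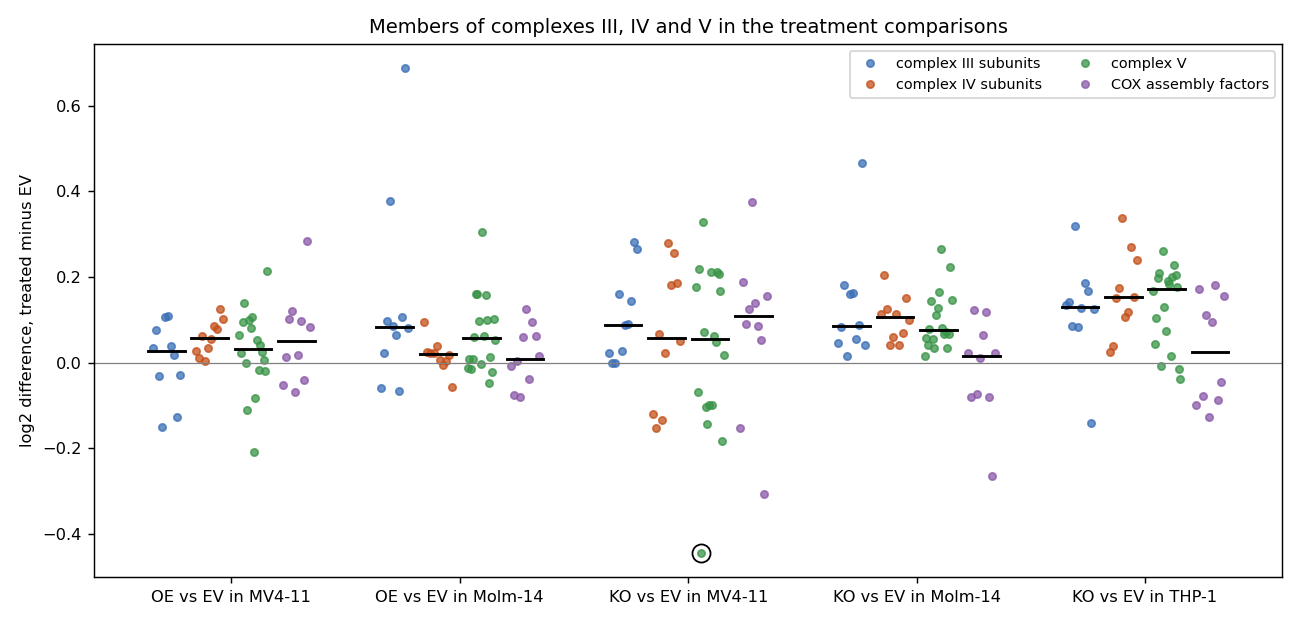
Log2 difference of each tested member, treated minus EV, in the 5 treatment comparisons (x axis), with 1 point per gene coloured by class and black bars at class medians. The ring marks ATP5F1D, the 1 member called at 5% FDR, at -0.44 in MV4-11 KO. The point at 0.69 in Molm-14 OE is UQCRHL, whose libraries were at or below 1.20 CPM.

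MPC1 KO called 1 member, in 1 line. ATP5F1D, which encodes the delta subunit of the central stalk that couples the rotor to the catalytic head, fell in MV4-11 KO. It was at 41.2, 50.8 and 46.3 CPM in KO and at 59.9, 56.5 and 72.3 in EV, so the groups did not overlap, and the log2 difference was -0.44 (SE 0.123, edgeR FDR 0.0341; DESeq2 called it too). In Molm-14 it was at 51.5, 53.9 and 45.6 CPM in KO against 54.7, 45.9 and 43.0 in EV, and in THP-1 at 21.4, 20.3 and 27.8 against 22.2, 16.7 and 21.6. Both of these overlapped. The call rested on single libraries: it was lost without MV4-11 EV replicate 3 (-0.33, FDR 0.244), without KO replicate 1 (-0.37, FDR 0.207) and without KO replicate 3 (-0.45, FDR 0.0590). The difference of the effect between MV4-11 and Molm-14, -0.52, was not called (FDR 0.141), nor was that between MV4-11 and THP-1, -0.64 (FDR 0.238).

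At 5% FDR the share of members called was under that of all genes in each line. In MV4-11, 1 of 48 members (2.08%) was called, and it was lower, against 5.41% of all genes called and 2.24% called lower. In Molm-14 and THP-1 edgeR and DESeq2 called 0, against 2.40% and 0.0897%. At a share as low as that of THP-1, 0 of 48 does not set the members apart. At an unadjusted p under 0.05, 6 of 48 members passed in MV4-11, 3 in Molm-14 and 4 in THP-1, against 22.3%, 10.7% and 8.01% of all genes. In THP-1 this share of members was close to that of all genes. No member's KO effect was called as different between lines by edgeR or by DESeq2. For MV4-11 against Molm-14, 0 of 48 were called by edgeR (1.48% of genes), and 6 passed an unadjusted p under 0.05 (14.2% of genes). For MV4-11 against THP-1 the counts were 0 (0.193%) and 3 (9.05%), and for Molm-14 against THP-1 they were 0 (0.766%) and 0 (7.80%). The OE effects in MV4-11 and Molm-14 also had 0 members called as different (0.0456% of genes), with 2 at an unadjusted p under 0.05 (5.30%).

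Small positive differences were common under KO. In Molm-14, all 38 tested members other than the COX assembly factors were higher in KO than in EV, by 0.01 to 0.47, with 0 called by edgeR. The value of 0.47 was that of UQCRHL, which was at or below 1.46 CPM in each library of these groups. Without Molm-14 EV replicate 2, which was low for most members, 25 of the 38 were higher and their median went from 0.08 to 0.03. With all libraries, the class medians in Molm-14 were 0.09 for complex III, 0.11 for complex IV, 0.08 for complex V and 0.02 for COX assembly factors, where 6 of 10 were higher. In THP-1 the medians were 0.13, 0.15, 0.17 and 0.02, with 34 of the 38 higher, and 29 without EV replicate 3, where their median went from 0.15 to 0.08. In MV4-11 they were 0.09, 0.06, 0.05 and 0.11, with 26 of 38 higher, and from 18 without EV replicate 2 to 31 without EV replicate 1. All tested genes had medians of 0.02 in MV4-11 and 0.00 in the other 2 lines.

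Other gene sets had values of the same size beside these. Cytosolic ribosomal proteins had KO medians of 0.10 in MV4-11, 0.07 in Molm-14 and 0.19 in THP-1. Nuclear subunits of complexes I and II had 0.05, 0.07 and 0.10, with 1 of 41 called, in MV4-11. In bulk RNA, fewer cells of a kind and less RNA per cell cannot be told apart.

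Among members with a mean of at least 10 CPM in the series, the widest KO differences by line were these. In MV4-11, ATP5F1E, the epsilon subunit of the central stalk, was at 245, 213 and 191 CPM in KO and at 188, 167 and 161 in EV, a difference of 0.33 (SE 0.110, FDR 0.0779). Its groups did not overlap, and it differed in sign from its neighbour in the stalk, ATP5F1D. COX6C, a small complex IV subunit, followed with 0.28 (FDR 0.147), and COX20 had -0.31. In Molm-14, ATP5MF, the f subunit of the membrane domain, was at 89.9, 95.1 and 84.8 CPM in KO and at 80.6, 69.1 and 75.3 in EV (0.27, FDR 0.322). Next came ATP5PF, a stalk subunit, with 0.22, while COX20 had -0.27 and COX19 -0.08. In THP-1, COX6B1 was at 176, 173 and 178 CPM in KO and at 152, 140 and 125 in EV, a difference of 0.34 (SE 0.107, FDR 0.385) with no overlap. UQCRB had 0.32 there, COX10 -0.10 and COX19 -0.09.

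Of the 6 mitochondrially encoded partners, 2 fell in MV4-11 KO, where 2.24% of all genes were called lower. Their median difference was -0.92, and those called were MT-CO2 (-1.13, FDR 0.0426) and MT-CO3 (-0.99, FDR 0.0375), both core subunits of complex IV. The mean log2(CPM + 0.5) of the 6 genes was 6.52, 7.48 and 7.12 in EV and 6.19, 5.92 and 6.55 in KO, so that the groups overlapped. MT-CO2 was at 150 ± 28.8 CPM in KO and 329 ± 143 in EV, and the library preparation removed ribosomal RNA but the share of mitochondrial counts varied from 0.140% to 0.452% between libraries of the series. In Molm-14 and THP-1 their medians were -0.12 and -0.25, with 0 called by edgeR. Among 33 tested assembly and maturation factors outside the symbol rule, HIGD1A, a complex III and IV interacting protein, rose in MV4-11 KO (0.62, FDR 0.0210), and no other was called in the KO comparisons.

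**Figure D2:**
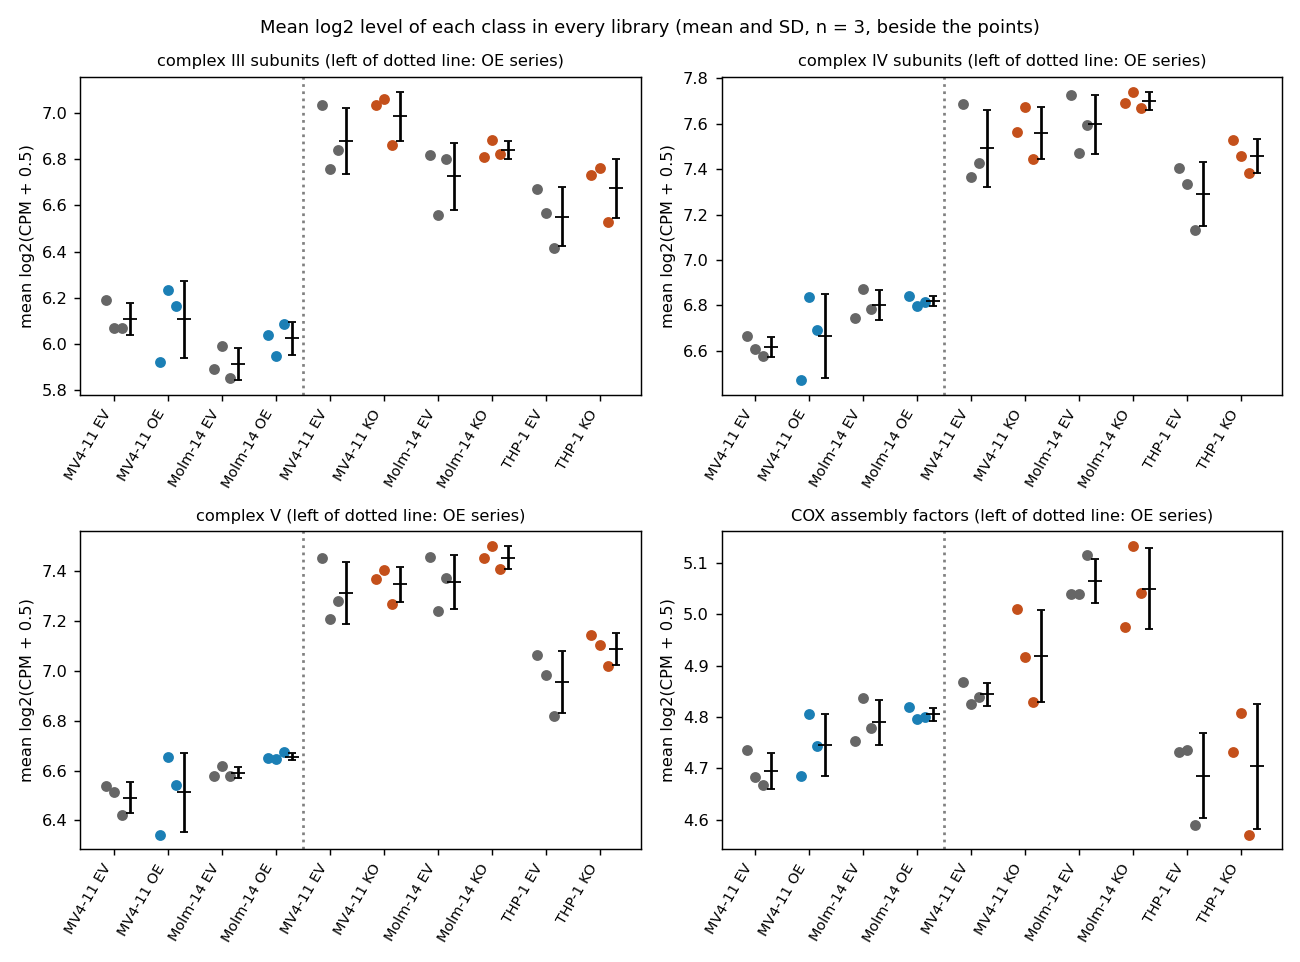
Mean log2(CPM + 0.5) over the tested members of each class in every library (y axis, a separate range in each panel), by group (x axis), with the mean and SD of 3 libraries beside the points. Treated and EV groups overlap except in complex V for Molm-14 of the OE series. There OE is at 6.65, 6.65 and 6.67 and EV at 6.58, 6.62 and 6.58. Within the KO series the THP-1 groups have the lowest means in every class. In complex V the THP-1 EV mean is 6.96 against 7.36 in Molm-14 and 7.31 in MV4-11. Levels are not compared between the series, which were normalized apart.

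More members differed between cell lines than between treated and EV libraries. Comparing EV libraries alone, 27 of 48 members differed between MV4-11 and Molm-14 in the OE series, where 64.8% of all genes did, and 23 of 48 in the KO series, where 61.7% did. DESeq2 called 26 and 22. Members were called no more often than genes in general. In the OE series 11 were higher in MV4-11 and 16 lower, against 32.9% and 31.9% of all genes. In the KO series 9 were higher and 14 lower, against 30.1% and 31.6%.

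The 2 series allowed the same line comparison to be made on separate libraries. Both called 17 members in the same direction, which is 63.0% of the members called in the OE series and 73.9% of those called in the KO series. Among 13627 genes tested in both, these shares of calls were 74.4% and 82.3%. As a share of genes tested, 35.4% of members and 52.7% of all genes were called in the same direction in both. Over the 48 members the log2 differences of the series had a Pearson r of 0.855 and a Spearman rho of 0.813, and over all genes 0.911 and 0.855. The points are genes of the same 2 lines and are not independent.

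In complex III, 4 of 10 subunits were called higher in MV4-11 in each series, against 32.9% of all genes in the OE series and 30.1% in the KO series. In the OE series 8 of 10 had positive differences and 0 were called lower. In the KO series 4 of 10 had positive differences, the median was -0.02, and UQCRH was called lower (-0.27, FDR 0.0165). The 2 core subunits that form the bulk of its matrix domain were called higher in both series, UQCRC1 by 0.30 and 0.27 and UQCRC2 by 0.27 and 0.30. UQCR10, a small subunit beside cytochrome c1, was higher by 0.27 and 0.30. UQCRHL was at 1.74, 1.35 and 1.36 CPM in MV4-11 EV and at 0.442, 0.657 and 0.468 in Molm-14 EV of the OE series, a difference of 1.49, and of 1.80 in the KO series. No library overlapped, although the level is low. The redox subunits CYC1 and UQCRFS1, which carry the heme and the iron-sulfur cluster on the way to cytochrome c, were not called in either series.

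In complex IV, 5 of 10 tested subunits were called lower in MV4-11 and 1 higher in the OE series, and 3 lower and 1 higher in the KO series. Of the 10 COX assembly factors, 4 were called lower and 3 higher in the OE series (median 0.08), and 5 lower and 1 higher in the KO series (median -0.19). Of all genes, 31.9% were called lower and 32.9% higher in the OE series, and 31.6% and 30.1% in the KO series. COX7A2 was at 82.2, 80.0 and 83.5 CPM in MV4-11 EV and at 124, 146 and 131 in Molm-14 EV (-0.71), and it was lower by the same measure in the KO series (-0.70). COX7C (-0.51 and -0.48) and COX6A1 (-0.45 and -0.31) were also lower in both. No complex IV subunit was called higher in MV4-11 in both series. COX14, which assists early assembly around MT-CO1, was the assembly factor called higher in MV4-11 in both (0.35 and 0.46). COX16 (0.75) and the copper factor COX17 (0.45) were called higher in the OE series and had 0.53 and 0.11 in the KO series, not called.

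COX15 and COX20 had the largest differences of the assembly factors. COX15, the enzyme that makes heme A for complex IV, was at 44.7, 46.8 and 42.4 CPM in MV4-11 EV and at 82.6, 85.2 and 83.8 in Molm-14 EV of the OE series. In the KO series it was at 90.1, 89.9 and 89.7 against 163, 163 and 176. The log2 differences were -0.91 (SE 0.0613) and -0.90 (SE 0.0740). COX20 was at 10.7, 11.7 and 10.6 CPM against 22.2, 23.8 and 22.1 in the OE series, and at 10.6, 16.6 and 13.1 against 29.6, 25.1 and 28.4 in the KO series, with differences of -1.04 and -1.05. Every MV4-11 library was below every Molm-14 library for both genes. COX11, which hands copper to the catalytic core, had -0.44 and -0.52, and COX7A2L, which helps complexes III and IV to join, had -0.38 and -0.56.

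Complex V was mixed. ATP5F1B was lower in MV4-11 (-0.57 and -0.56), at 739, 717 and 691 CPM against 1049, 1079 and 1058 in the OE series. ATP5MK, a small membrane subunit that helps complex V to dimerize, had -0.75 and -0.69, ATP5MC1 -0.68 and -0.30 and ATP5PB, the stalk anchor, -0.25 and -0.37. ATP5MF was higher in both (0.24 and 0.59). ATP5IF1, which inhibits ATP hydrolysis by complex V, was at 37.5, 47.0 and 35.8 CPM in MV4-11 EV and at 24.6, 24.1 and 22.5 in Molm-14 EV of the OE series (0.76, FDR 0.000178). In the KO series it was at 75.6, 61.5 and 62.9 against 63.6, 52.2 and 57.5, which overlapped (0.21, FDR 0.0658).

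ATP5F1D was the 1 member called in opposite directions. In the OE series it was at 103, 88.1 and 83.5 CPM in MV4-11 EV and at 145, 150 and 140 in Molm-14 EV, a log2 difference of -0.66 (SE 0.0699). In the KO series it was at 59.9, 56.5 and 72.3 against 54.7, 45.9 and 43.0, a difference of 0.40 (SE 0.124, FDR 0.00690). Neither pair of groups overlapped. Without MV4-11 EV replicate 3 of the KO series the second difference was 0.29 and was not called (FDR 0.0713). Of all 13627 genes, 165 were called in opposite directions. The same EV libraries of MV4-11 are the reference for the KO difference of this gene.

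**Figure D3:**
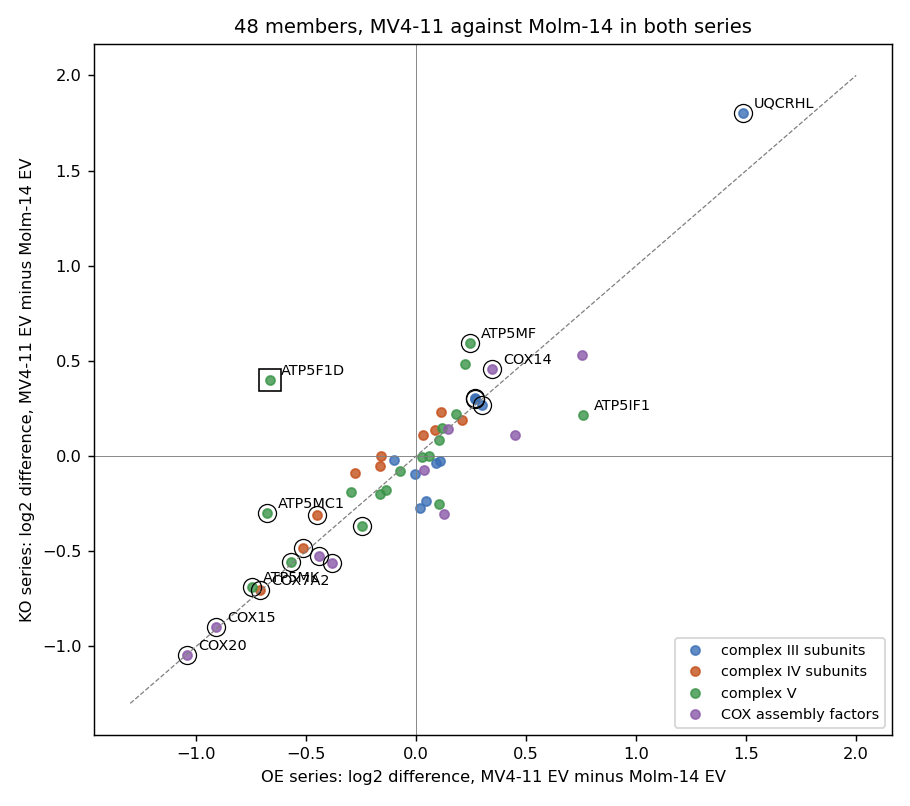
Log2 difference of 48 members between MV4-11 EV and Molm-14 EV in the OE series (x axis) and in the KO series (y axis), coloured by class, with the dashed line at equal values. Rings mark the 17 members called in the same direction in both series, and the square marks ATP5F1D, at -0.66 and 0.40.

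THP-1 had the lowest levels of many members. Against MV4-11, 25 of 48 were called, where 67.5% of all genes were. Of these 22 were lower in THP-1 and 3 higher, against 32.9% and 34.6% of all genes. Against Molm-14, 29 were called, where 69.6% were, 24 lower and 5 higher, against 34.1% and 35.5%. DESeq2 called 22 and 27. The median difference was -0.24 and -0.22 over the members and 0.01 and 0.02 over all tested genes. Scaling by another method kept the balance, with 21 of 25 and 22 of 27 called lower. The 2 comparisons share the THP-1 libraries, and their values are given side by side.

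A set of 17 members, 35.4% of those tested, was lower in THP-1 than in both other lines, against 20.3% of all genes. Only COX20 and UQCRH, 4.17% of members, were higher than in both, against 22.7% of all genes. Under the alternatives run, 15 to 19 members were lower than both. COX20 stayed higher in all of them and UQCRH in all but the one without THP-1 EV replicate 1.

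In complex V, 4 of 5 genes of the head and central stalk were lower than in both lines, against 20.3% of all genes. ATP5F1A and ATP5F1B form the catalytic head, and ATP5F1C, ATP5F1D and ATP5F1E the stalk that turns inside it. ATP5F1B was at 868, 802 and 726 CPM in THP-1 EV, at 1188, 1140 and 1200 in MV4-11 EV and at 1808, 1604 and 1783 in Molm-14 EV, with differences of -0.56 and -1.12. ATP5F1C was at 135, 149 and 119 CPM in THP-1, against 281 to 324 in MV4-11 and 254 to 292 in Molm-14 (-1.14 and -1.05). ATP5F1D was at 22.2, 16.7 and 21.6 CPM, below every library of the other lines (-1.64 and -1.24). ATP5F1A had -0.26 and -0.43, and only ATP5F1E was not called (-0.24, FDR 0.0569, and -0.02, FDR 0.857). The call of ATP5F1A against MV4-11 held in 8 of 11 alternatives.

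The peripheral stalk, which holds the head still, had no such pattern. ATP5PB and ATP5PD were not called against either line. ATP5PF had -0.24 against MV4-11 and 0.24 against Molm-14, and ATP5PO was lower only against Molm-14 (-0.35). Whether head and stalk differ from each other was not tested. In the c ring, ATP5MC2 was lower than in both (-0.44 and -0.44), ATP5MC1 lower than in Molm-14 (-0.48) and ATP5MC3 not called. Of the membrane subunits, ATP5MK was at 75.8, 72.7 and 51.8 CPM in THP-1 EV, at 163, 134 and 141 in MV4-11 EV and at 248, 208 and 253 in Molm-14 EV (-1.12 and -1.81). The order of the 3 lines was free of overlap for this gene. ATP5ME and ATP5MG, the e and g subunits, were not called, and neither was the inhibitor ATP5IF1 (-0.13 and 0.09).

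In complex III, the Rieske iron-sulfur protein stood out. UQCRFS1 was at 73.4, 67.9 and 54.5 CPM in THP-1 EV, at 167, 156 and 145 in MV4-11 EV and at 171, 146 and 164 in Molm-14 EV. The differences were -1.25 and -1.29, and no THP-1 library came near those of the other lines. The other redox subunit, CYC1, was lower by less (-0.32 and -0.34). UQCR11, a small subunit, had -0.90 and -0.93, and UQCRC1 -0.50 and -0.23. UQCRH was higher in THP-1, by 0.58 and 0.31, at 256, 243 and 202 CPM against 180, 141 and 149 in MV4-11.

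In complex IV, COX6B1, which faces the cytochrome c binding side, was at 152, 140 and 125 CPM in THP-1 EV, 333, 238 and 266 in MV4-11 EV and 279, 240 and 258 in Molm-14 EV (-1.01 and -0.90). COX5B (-0.55 and -0.64), COX7B (-0.45 and -0.51) and COX4I1 (-0.28 and -0.28) were also lower than in both. COX7A2 was higher than in MV4-11 (0.78) and was not called against Molm-14 (0.07, FDR 0.535). COX5A and COX6C were not called against either line.

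Both heme enzymes were lower in THP-1 than in both other lines, and no copper factor was. COX10 makes heme O from heme B, and COX15 turns heme O into heme A. COX10 was at 12.8, 14.1 and 14.9 CPM in THP-1 EV and at 26.0, 28.7 and 31.1 in MV4-11 EV. The highest Molm-14 EV library was at 32.6, and every THP-1 EV library was below all EV libraries of the other lines (-1.04 and -1.11). COX15 was at 41.8, 37.5 and 38.8 CPM in THP-1 EV, below every library of the other lines (-1.19 and -2.09). Of the copper factors, COX17 and COX19 were not called against either line, and COX11 was lower only against Molm-14 (-0.52).

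COX14 and COX20, which act on different core subunits, went opposite ways. COX14 was at 11.7, 11.4 and 11.2 CPM in THP-1 EV, against 30.8, 23.3 and 27.4 in MV4-11 EV (-1.25) and 22.2, 17.1 and 20.6 in Molm-14 EV (-0.79). COX20 was at 63.3, 67.3 and 55.4 CPM in THP-1 EV, above MV4-11 by 2.22 (SE 0.146) and above Molm-14 by 1.17 (SE 0.135). It was the 1 assembly factor higher than in both lines. COX20 lies at chr1:244835616-244845057 on the plus strand, where 3502 bases of its exons overlap HNRNPU on the other strand. COX15 (chr10:99710868-99732127, minus strand) shares 1081 exon bases with ENSG00000285932 on its own strand. Whether counting used strand is not given in the sources used here, so reads of these partners may be included. ATP5F1D (chr19:1241746-1244825, plus strand) and UQCRFS1 (chr19:29205320-29213151, minus strand) overlap no other exon.

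**Figure D4:**
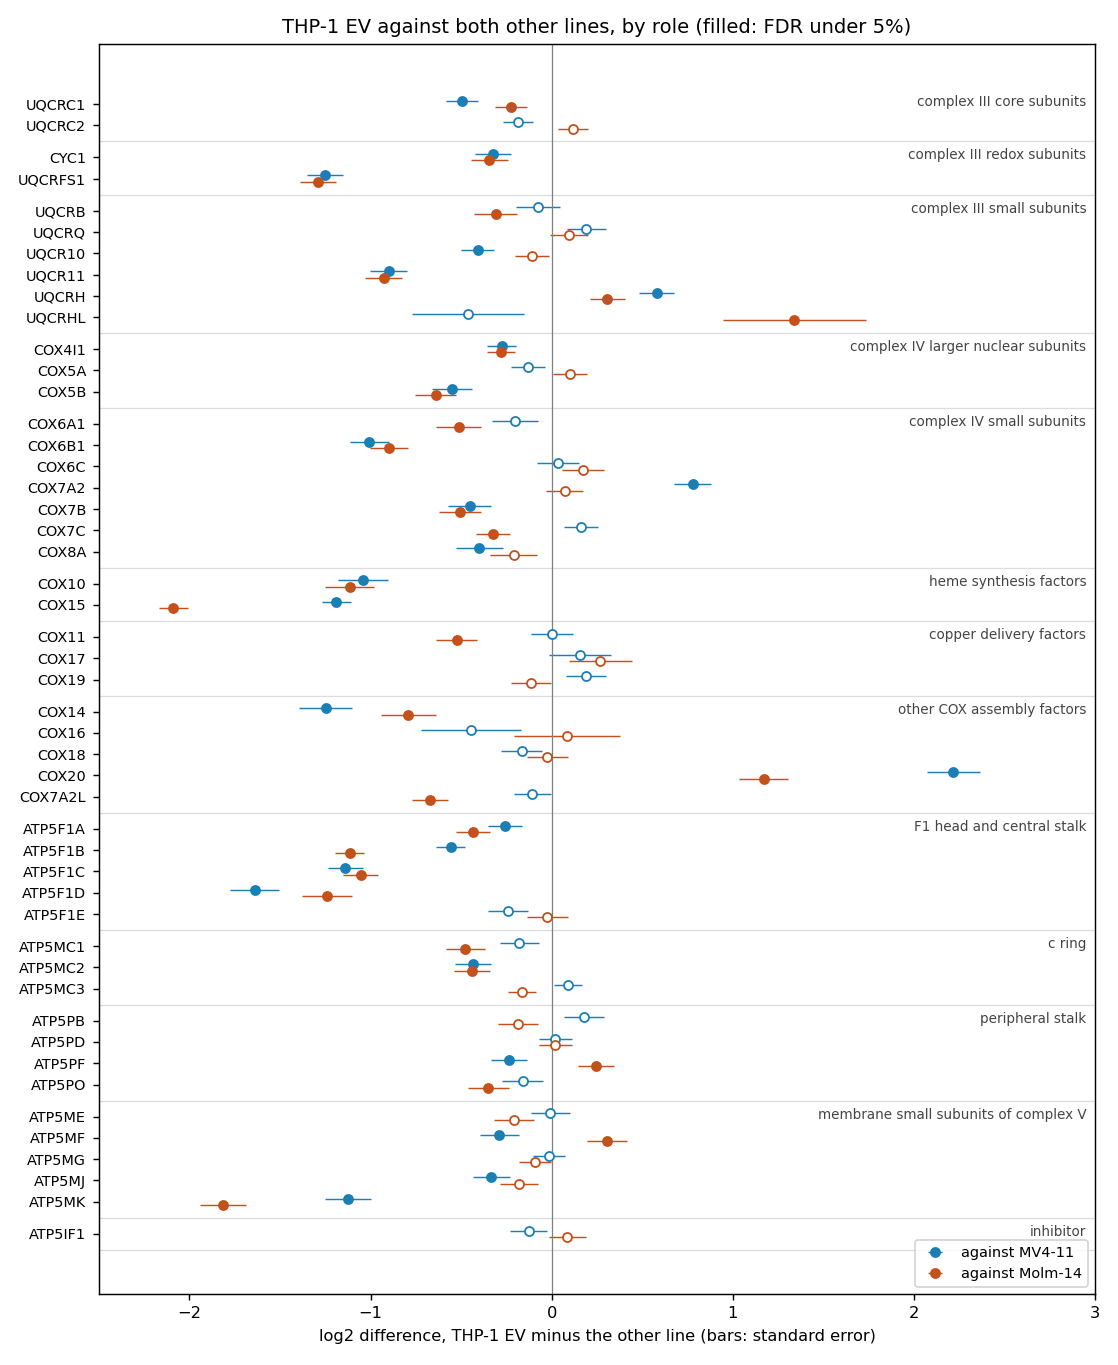
Log2 difference of each tested member, THP-1 EV minus MV4-11 EV (blue) or minus Molm-14 EV (orange), with bars of 1 standard error and members ordered by role (y axis). Filled points were called at 5% FDR. The widest negative values are those of COX15, ATP5MK, ATP5F1D and UQCRFS1, and COX20 is the widest positive one at 2.22.

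The line pattern held under treatment as a description of the same lines. In KO libraries COX15 was at 44.1, 41.6 and 42.1 CPM in THP-1, at 96.3, 103 and 95.4 in MV4-11 and at 155, 167 and 155 in Molm-14. UQCRFS1 was at 73.3, 81.7 and 68.4 CPM in THP-1 KO and between 152 and 181 in the other 2 KO groups. COX20 was at 68.2, 62.4 and 49.8 CPM in THP-1 KO, at 9.81, 11.8 and 10.7 in MV4-11 KO and at 19.1, 24.3 and 25.3 in Molm-14 KO. No THP-1 library overlapped another line for these 3 genes.

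**Figure D5:**
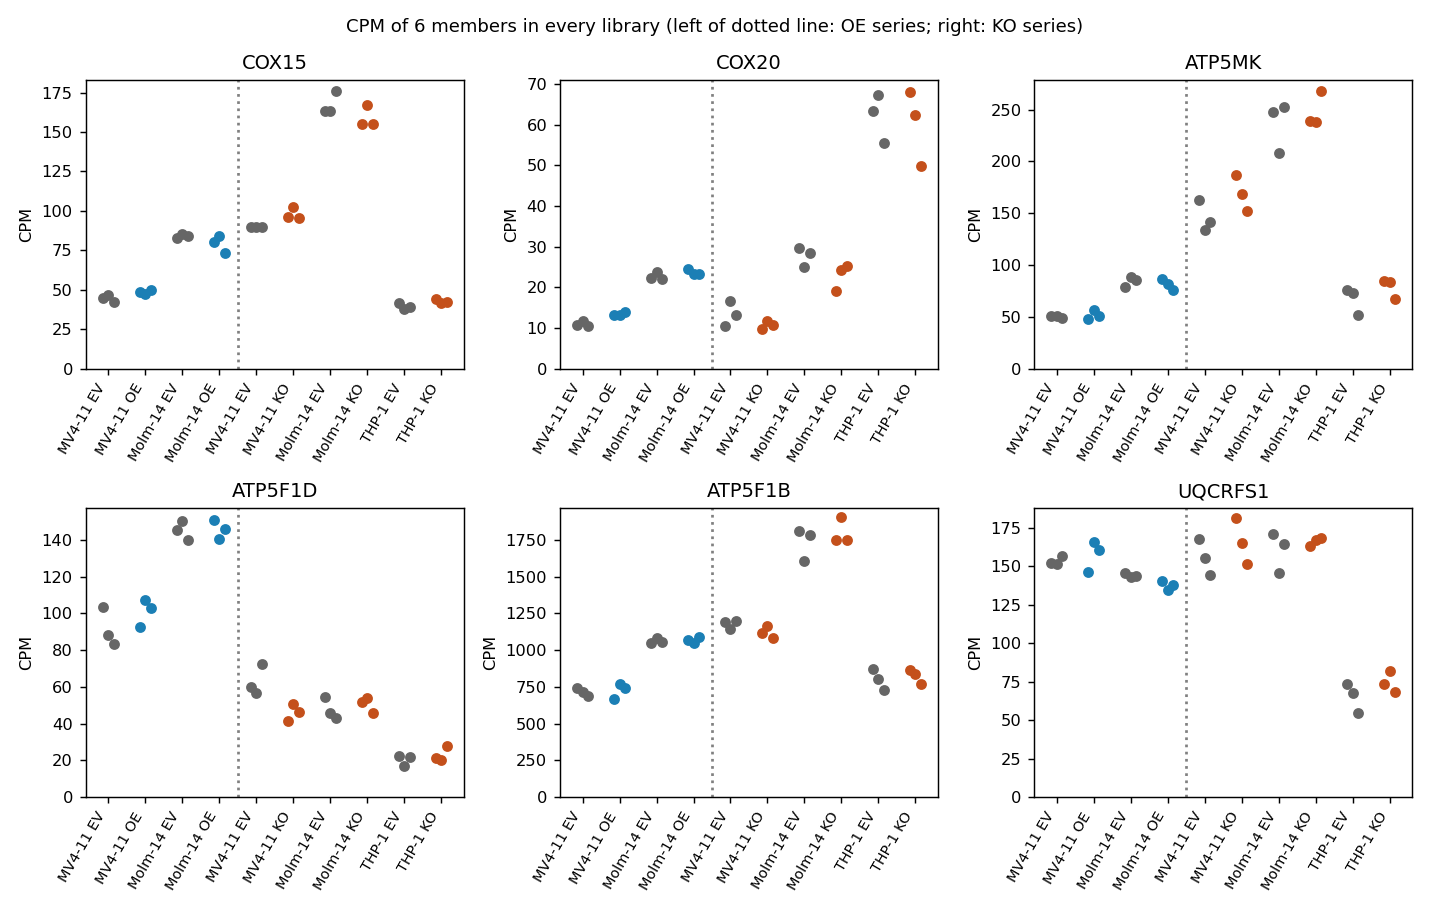
CPM of 6 members in each of 30 libraries (y axis, from 0), by group (x axis), with EV in grey, OE in blue and KO in orange and the series split by the dotted line. Levels differ by line in each panel: COX15 in THP-1 stays at or below 44.1 CPM and in Molm-14 of the KO series at or above 155 CPM, with or without KO.

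Genes outside the rule showed where the line differences were shared. Nuclear subunits of complexes I and II were also lower in THP-1, with medians of -0.32 against MV4-11 and -0.28 against Molm-14 and 21 of 41 called lower each time. Cytosolic ribosomal proteins had medians of -0.20 and -0.74. Of 8 tested regulators of mitochondrial genes, 3 were called lower against MV4-11 (37.5%, against 32.9% of all genes) and 4 against Molm-14 (against 34.1%), and 0 were called higher. TFAM, which packages and transcribes mitochondrial DNA, had -1.24 and -2.44, and PPRC1, a coactivator of mitochondrial genes, -1.14 and -2.05. NRF1 and YY1 were not called against either line, and GABPA was lower only against Molm-14 (-0.39).

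The promoters of members were searched because so many of them were lower together in THP-1. Promoters of 43 of 56 members were in the RefSeq table (GRCh38.p14, 250 bases before to 50 after the start), and motifs were searched on both strands. The ETS motif ccggaag, bound by GABPA and its relatives, was in 16 members (37.2%) against 14.4% of 15345 promoters. The NRF1 core gcgcatg was in 8 (18.6%) against 5.85%, and the YY1 core aagatgg in 9 (20.9%) against 6.43%. Both cores were set after longer versions, held by fewer members and fewer promoters in all, had been searched. These shares are over all members and do not bear on THP-1, and the 15345 promoters were not limited to expressed genes. Of the 17 members lower in THP-1 than in both lines, 14 had a promoter in the table and 7 of these held the ETS motif, as did 9 of 29 others. Windows of 30 bases around the motif, in capitals and read along the gene's strand, are shown at the match nearest to the start. They cover each motif found among the 17 members, except the NRF1 match of ATP5MC2 (chr12:53676104-53676133, minus strand). Members without a match have no window, and ATP5F1B, ATP5F1D and CYC1 had no promoter in the table. Where the match is on the other strand the capitals hold its reverse complement.
COX15, ETS, chr10:99732117-99732146, minus strand: cgctgcccgacCCGGAAGtgcttctctttt
COX10, ETS, chr17:14069474-14069503, plus strand: gagcccgcccgCCGGAAGtggcggcccgga
COX10, YY1, chr17:14069520-14069549, plus strand: ggcggggaaggAAGATGGcggcgcccagcg
COX4I1, ETS, chr16:85799686-85799715, plus strand: ggccttgctctCTTCCGGtcgcgggacacc
COX5B, ETS, chr2:97646046-97646075, plus strand: gcagcttgttcCCGGAAGttttgctgctag
COX5B, NRF1, chr2:97645916-97645945, plus strand: gcagagctgggCATGCGCaatttccgcccc
UQCR11, ETS, chr19:1605541-1605570, minus strand: actgtaagtggCTTCCGGgtctgcgcgcac
ATP5MK, ETS, chr10:103396460-103396489, minus strand: ggaggtggcttCTTCCGGccgggccgagag
COX6B1, ETS, chr19:35648300-35648329, plus strand: acctctctcagCTTCCGGctggtagtagtt
ATP5F1C, NRF1, chr10:7788147-7788176, plus strand: gagcttcggcgCATGCGCgctgaggcctgc
UQCRC1, YY1, chr3:48609605-48609634, minus strand: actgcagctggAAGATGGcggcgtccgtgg

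These matches are letters in a window and not measured binding. Of the members lower in THP-1 than in both lines, ATP5F1A, COX14, COX7B and UQCRFS1 had none of the 3 motifs in their windows. Of the members higher than in both, COX20 had none and UQCRH held an ETS match.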

How the data were processed

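RNA was extracted by the authors with a Qiagen miRNeasy kit and DNase, and libraries were depleted of ribosomal RNA and sequenced on an Illumina NovaSeq. Per the labels and the study's methods, reads were trimmed with cutadapt 1.16, stripped of optical duplicates, aligned with STAR 2.7.6a to GRCh38 (Ensembl 102) and assigned with featureCounts 1.6.3. The authors deposited raw counts per gene, in 1 table per series, and used DESeq2 (1.30.1 in the labels, where the methods name another 1.30 release). The tables list 58051 (KO series) and 60675 identifiers (OE series). The release behind the KO table and the use of strand are not given in the sources used here.

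Groups came from the labels. Identifiers were matched to GENCODE 44 (56948 and 60419 matched). Each table was filtered (filterByExpr) and scaled (TMM), and tested on the deposited counts with edgeR 4.0.16 in R 4.3.3 by its quasi-likelihood test, with 17542 and 14490 genes tested and Benjamini-Hochberg adjustment over all of them. The script was tested on simulated data. Comparisons were 5 of treatment against EV, 4 of differences between effects and 4 of EV libraries between lines. DESeq2 1.42.0, other scaling, no filter, the compared libraries alone, a replicate block and leaving out each library were alternatives.

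Members, lists and roles were chosen with earlier results of these data known. Named members were those called in a treatment or difference comparison, the 4 widest called in each line comparison, the 2 widest rises and falls at 10 CPM or more in each treatment comparison, tissue isoforms and counterparts, the c ring, ATP5IF1, the highest and lowest member of each class, and MPC1. Others named were chosen after their values were seen. Replicate numbers paired the libraries in THP-1 alone, where same-numbered KO and EV libraries deviated together (r of 0.380, 0.277 and 0.600 over 9824 genes). With the block, THP-1 still had 0 members called.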

Additional observations from a re-analysis of the deposited data

How the results depend on the processing

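Over all alternatives, counts of called members stayed within 1.5 times of the reported count in 159 cases and moved further in 7, and class medians moved by less than 1 SD in 213 and by more in 7. Members called in MV4-11 KO went from 1 to 3 without the filter on low counts (ATP5F1E and COX6C added) and ranged from 0 to 3 when single libraries were left out, with 3 without EV replicate 1 and 0 without EV replicate 3 or KO replicate 1. In MV4-11 OE the range was 0 to 1, with 1 (ATP5PO) without OE replicate 1. The KO effect of MV4-11 minus Molm-14 had 1 member called without the filter (ATP5F1D). Class medians ranged, when single libraries were left out, from -0.053 to 0.22 for complex IV and from -0.019 to 0.17 for complex V in MV4-11 KO, both highest without EV replicate 1. For COX assembly factors they ranged from -0.085 to 0.046 in Molm-14 KO, lowest without KO replicate 2, from -0.034 to 0.13 in THP-1 KO, highest without EV replicate 1, and from 0.029 to 0.11 in MV4-11 OE, highest without EV replicate 1. For complex V in Molm-14 OE they ranged from 0.034 (without OE replicate 3) to 0.065. UQCRB in MV4-11 OE ranged from -0.37 to 0.059, reversed without OE replicate 1, and COX19 in THP-1 KO from -0.14 to 0.0052, reversed without KO replicate 2. The cause of these shifts was not tested.

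With the replicate block, MV4-11 KO had 4 members called (ATP5F1C, ATP5F1D, ATP5F1E and COX7B) and no other treatment count changed. Outside THP-1 the numbers did not pair the libraries: the number of libraries that correlated best with their own number was 0 in both OE-series lines and in MV4-11 of the KO series, and 1 in Molm-14. The KO series had fewer counts per library, and the median standard error of a member was 0.105 in MV4-11 KO against 0.0760 in MV4-11 OE.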

Other observations

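ATP5ME had 13.8 ± 0.744 CPM (SD, n = 3) in MV4-11 EV of the OE series and 82.4 ± 9.65 in MV4-11 EV of the KO series. COX6A1 went the other way, with 80.1 ± 1.37 and 50.7 ± 10.2. The tables list different sets of gene identifiers, and these values were not tested against each other. Exons of ATP5ME overlap those of MYL5 over 571 bases.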
